A study of Mus musculus with 24 samples.

Results

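Immunoglobulin gene segments were read out in RNA-seq libraries of uninjured carotid arteries from ovariectomized C57BL/6 mice. Members were the V, D, J and constant segments of the GENCODE annotation of the mouse genome with a nonzero count in at least 6 of the 24 libraries. This rule took 123 of the 268 annotated immunoglobulin segments, out of 55421 genes listed per library. The members were selected on their counts over all 24 libraries, without regard to the group of a library. The 123 members were 100 variable segments (44 Ighv, 53 Igkv and 3 Iglv), 11 joining segments, 11 constant genes and 1 diversity segment. Heavy chain members lay on chromosome 12, kappa members on chromosome 6 and lambda members on chromosome 16.

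All mice were females without ovaries, 9 weeks old by the labels, and each library carried the number of its own animal. The 4 groups of 6 libraries came from mice that received vehicle, E2 (17β-estradiol), E4 (estetrol) or tamoxifen, a selective estrogen receptor modulator. The series' design gives 3 weeks of treatment, whereas the study's methods describe 2 weeks of subcutaneous pellets, with cholesterol alone as vehicle. The treatment field of the E4 libraries reads Placebo, and their titles and descriptions, which placed them in the E4 group here, read E4. The methods do not name the tamoxifen libraries. E2 and E4 pellets were not of equal dose, so that comparisons between them are between these treatments and not between equal amounts of the steroids. The study reports that it adjusted the E4 dose to an estrogenic effect like that of E2, judged by the growth of the uterus.

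Immunoglobulins are made by B cells and by plasma cells, their secreting descendants. A heavy chain gene is assembled from V, D and J segments and a light chain gene, kappa or lambda, from V and J segments, and the joined exon is then spliced to a constant gene that sets the class of the antibody. Naive B cells carry IgM and IgD, encoded by Ighm and Ighd, and a switched cell carries IgG, IgA or IgE instead. Because each B cell and its progeny use the same rearranged segments, the mix of V segments in a tissue depends on how many B cell clones it holds. The inner layers of the arterial wall have few B cells. The adventitia, its outer layer, and the fat and lymphoid tissue around the artery hold more.

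Library totals ranged from 24647246 to 64221401 counts. The lowest was E4 C38, and the median was 45156106. Members together received 452 to 4624 counts per library. Smooth muscle markers were abundant in every group (median summed level of the 10 genes 3516.8 to 4648.9 CPM), as were endothelial markers (742.6 to 873.3 CPM), and no B cell marker was at 0 in any group. The library E2 C9 stood apart, since its 15 T cell markers summed to 471.8 CPM against 17.9 to 51.1 CPM in the other E2 libraries and its 10 thymocyte markers to 720.2 CPM against 123.3 to 202.3 CPM. Its 19 B cell markers summed to 130.3 CPM, within the range of the other E2 libraries (111.1 to 138.1 CPM). Vehicle C5 and tamoxifen C35 were low in sympathetic ganglion markers. E4 C38 also stood apart, since its thyroid and parathyroid markers summed to 2990 CPM, of which Pth, the parathyroid hormone gene, made up 2912 CPM, against a median of 35.1 CPM over the E4 libraries, followed by E4 C16 with 132.9 CPM. Animals numbered 2 to 20 and 24 to 39 formed 2 series of numbers, present in all groups, which the labels do not call batches. Levels are given as CPM, the count scaled to library size with TMM factors, and the p-values measure the spread between mice.

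Few segments were abundant. The 7 members with a count in all 24 libraries contrasted with 9 members that had a count in exactly 6 libraries, the largest of these counts being 39. Just outside the rule, 15 segments had counts in 5 libraries, with a largest count of 27, 102 segments had counts in 1 to 5 libraries and 43 had none. Among constant genes, Ighe and Iglc4 fell outside. Of the members, 92 had a count in every group and none had counts in a single group only.

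The number of members with a count differed between libraries and is given as a description, since a nonzero count is also what chose the members and only 84 of the 123 would have been members on the libraries outside the vehicle group alone. The number of members with a count was 60 to 114 in vehicle libraries (median 87), 49 to 78 in E2 libraries (median 72), 26 to 57 in E4 libraries (median 42) and 42 to 81 in tamoxifen libraries (median 55). Since the number depends on depth, each library was also thinned, by calculation, to the smallest total. The expected number was then 71.9 ± 23.8 (SD, n = 6) in vehicle, 54.7 ± 8.96 in E2, 34.6 ± 6.33 in E4 and 43.6 ± 12.4 in tamoxifen libraries. The thinned values of the E4 libraries (26 to 45.2) barely met those of the vehicle libraries (44.4 to 106) and overlapped those of the E2 libraries (39.1 to 64.5). For variable segments alone, the thinned values were 29.6 to 84.5 in vehicle and 16 to 31.5 in E4 libraries. Thinning evens out the library totals and not the immunoglobulin counts, whose sum over the members had a median of 2796 in vehicle and 1090 in E4 libraries. No test was run on these numbers, because the rule used the same counts.

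Ighm, the constant gene of IgM (chr12:113418558-113422730, minus strand), was the most abundant member in every library. Its level was lowest at 21.3, median 32.7 and highest at 42.7 CPM in vehicle-treated mice, and 23.95, 33.1 and 59.0 CPM in E2-treated mice. In E4-treated mice the corresponding values were 12.4, 18.4 and 24.95 CPM, and in tamoxifen-treated mice 15.3, 20.3 and 25.2 CPM. Below every vehicle library lay 5 of 6 E4 libraries and 4 of 6 tamoxifen libraries, and the others lay within the vehicle range. Per kilobase of exon, the mean level over the 24 libraries was 14.3 CPM for Ighm against 6.32 CPM for Igkc, 1.63 CPM for Ighd and 0.260 CPM for Igha, so that Ighm exceeded the kappa constant gene also when length was taken into account. The ratio of Ighm to Igkc per base of exon was 1.17 to 6.53 over the vehicle libraries and 1.69 to 4.52 over the E4 libraries.

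Ighd, the constant gene of IgD (chr12:113406604-113416324, minus strand), is transcribed together with Ighm in naive B cells and lost after class switching. Its level was lowest at 1.69, median 4.83 and highest at 10.035 CPM in vehicle libraries and 2.00, 2.80 and 5.45 CPM in E2 libraries. It was 0.938, 1.49 and 2.31 CPM in E4 libraries and 0.998, 1.84 and 3.67 CPM in tamoxifen libraries. Vehicle C2 was the only vehicle library within the E4 range. Ighd thus varied 5.94-fold among the vehicle-treated mice, whereas Ighm varied 2.01-fold.

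Igkc, the only kappa constant gene (chr6:70726435-70726966, plus strand), was lowest at 0.919, median 5.11 and highest at 9.61 CPM in vehicle libraries. It reached 1.60, 2.60 and 11.1 CPM in E2, 0.899, 1.86 and 3.19 CPM in E4 and 0.740, 2.06 and 4.55 CPM in tamoxifen libraries. The groups overlapped, and the highest level of all came from E2 C9. Kappa made up 67.1% ± 7.94 of the light chain constant counts in vehicle libraries (SD, n = 6), 78.0% ± 10.8 in E2, 79.7% ± 11.2 in E4 and 67.2% ± 20.8 in tamoxifen libraries. In tamoxifen C33 the kappa share was only 25.6%, and in E4 C20 it was 97.8%.

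The lambda constant genes Iglc1, Iglc2 and Iglc3 lie on chromosome 16 (19061618-19062071, 19198396-19200351 and 19065230-19065681). Iglc2 was lowest at 0.263, median 0.998 and highest at 2.86 CPM in vehicle, and 0.0469, 0.173 and 0.329 CPM in E4 libraries. In E2 libraries it was 0.0986, 0.493 and 0.629 CPM, and in tamoxifen libraries 0.155, 0.394 and 1.88 CPM. Iglc1 reached 0 to 0.649 CPM in vehicle libraries (median 0.395), 0.0435 to 0.443 CPM in E2 (median 0.183) and 0 to 0.0691 CPM in E4 (median 0.0137), where 3 of 6 libraries had no count and the others 1 to 3 counts. Apart from vehicle C2, which had no Iglc1 count, every vehicle library lay above every E4 library. In tamoxifen libraries Iglc1 was 1.05 CPM in C33, above every vehicle library, and 0.0639 to 0.268 CPM in the others. Iglc3 was 0.272 to 1.43 CPM in vehicle (median 0.671), 0.0986 to 0.461 CPM in E2 (median 0.310), 0 to 0.494 CPM in E4 (median 0.238) and 0.0344 to 0.424 CPM in tamoxifen libraries (median 0.163).

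**Figure D1:**
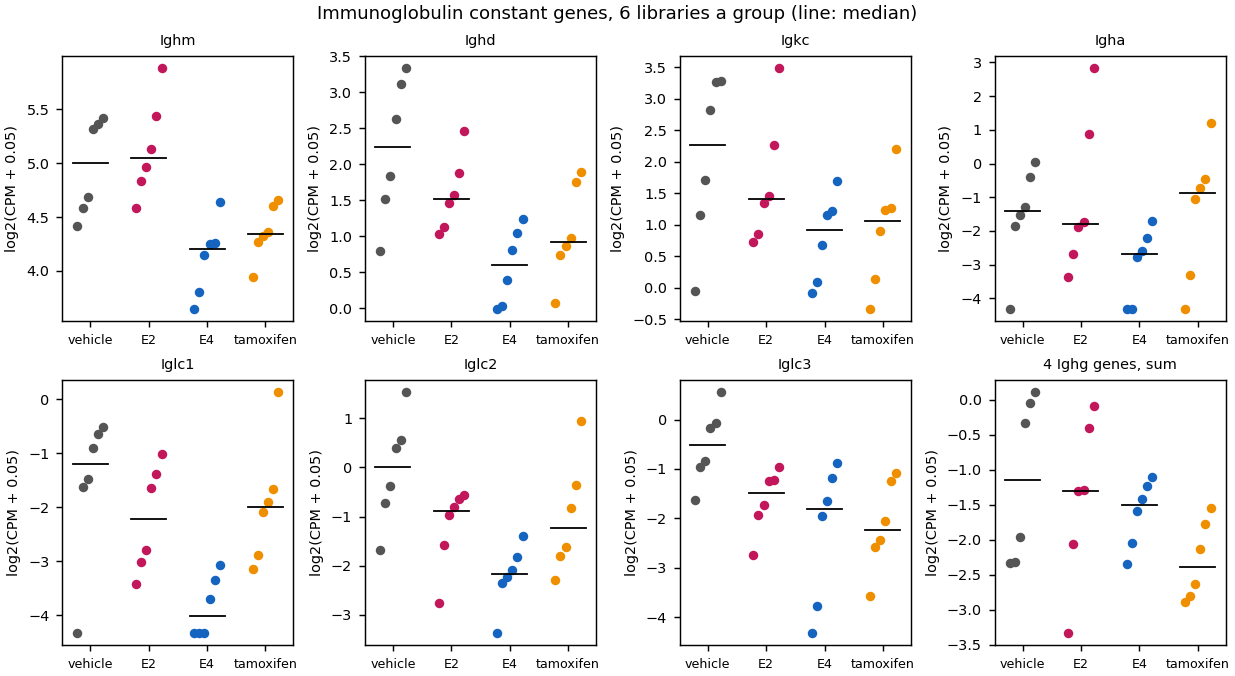
Level of the immunoglobulin constant genes in each library as log2(CPM + 0.05), by treatment group, with each point a library and each line the group median. Ighd lay between 0.938 and 2.31 CPM in the 6 E4 libraries and between 1.69 and 10.035 CPM in the 6 vehicle libraries, and the single high points in the Igha and Igkc panels of the E2 group belong to E2 C9.

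Iglc2 and Iglc3 are near copies of each other. Their coding sequences were identical at 303 of 314 bases (96.5%), and the 120-base stretches with most of the differences are shown, 5′ to 3′ on the minus strand, with the 7 differing bases in capitals (GENCODE transcripts, GRCm38, chr16:19198733-19198852 and chr16:19065562-19065681).
Iglc2: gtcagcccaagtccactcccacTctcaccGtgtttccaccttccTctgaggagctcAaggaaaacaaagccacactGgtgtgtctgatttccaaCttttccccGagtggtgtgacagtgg
Iglc3: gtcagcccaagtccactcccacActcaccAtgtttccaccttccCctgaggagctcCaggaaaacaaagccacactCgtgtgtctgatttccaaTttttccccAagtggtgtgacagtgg
The split of reads between this pair is therefore uncertain, and their sum with Iglc1 is less so. All 36 member values with decimals fell in Iglc2, Iglc3, Iglj2 and Igkv2-137, the 4 members whose exons overlap those of another annotated gene (for Iglc2 and Iglj2, each other).

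Switched classes were rare and uneven. Igha, the constant gene of IgA, was 0 to 0.983 CPM in vehicle (median 0.327), 0.0473 to 7.05 CPM in E2 (median 0.237), 0 to 0.254 CPM in E4 (median 0.107) and 0 to 2.27 CPM in tamoxifen libraries (median 0.496). It was carried by single libraries, with 324 counts in E2 C9, 102 in tamoxifen C12 and 85 in E2 C6. Ighg2c, which the C57BL/6 strain carries in place of the IgG2a gene, had counts in 23 of 24 libraries, at most 19. Ighg2b reached 43 counts in vehicle C5, 34 in E2 C9 and 23 in vehicle C24, and no more than 2 in any E4 library and 1 in any tamoxifen library. Ighg1 and Ighg3 stayed at or under 8 counts in every library, and both had 0 counts in all 6 tamoxifen libraries, which at these depths allows up to 3 counts per library and covers counting error only. Summed over the 4 IgG genes, the median was 0.474 CPM in vehicle, 0.357 CPM in E2, 0.303 CPM in E4 and 0.144 CPM in tamoxifen libraries.

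Counts were compared between treatments with the quasi-likelihood test of edgeR over all genes, and called genes had both an absolute log2 fold change over 1 and an adjusted p under 0.05. Only 13 of the 123 members passed the filter on low counts in the fit of vehicle, E2 and E4 libraries, namely 8 constant genes, Ighj1 to Ighj4 and Igkv1-110. The filter keeps a gene whose level is above a set minimum in at least 6 libraries, and a nonzero count alone does not suffice. A segment abundant in a single group can therefore pass through that group alone. The counts of called members describe these 13 and not the 123. Because the tissue was sequenced in bulk, fewer B cells and less RNA per B cell cannot be told apart.

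In E4-treated as compared with vehicle-treated mice, 6 of the 13 tested members were called lower and 0 higher, where 1.62% of all 24669 tested genes were called lower and 0.876% higher. Ighd fell (log2 fold change -1.82 ± 0.39, SE, adjusted p = 0.00553), as did Iglc1 (-3.76 ± 0.87, adjusted p = 0.00791) and Iglc2 (-2.67 ± 0.54, adjusted p = 0.00416). Iglc3 (-1.60 ± 0.54, adjusted p = 0.0411), Ighj4 (-1.24 ± 0.40, adjusted p = 0.0363) and Igkv1-110 (-4.22 ± 1.48, adjusted p = 0.0493) were also called. Ighm had an adjusted p of 0.0157 but a log2 fold change of -0.86 ± 0.23, short of the fold threshold. Igkc (-1.53 ± 0.56, adjusted p = 0.0584) lay close to the threshold and was called with DESeq2 (adjusted p = 0.0384), with scaling by library totals alone (adjusted p = 0.0493) and without vehicle C2, vehicle C4 or E2 C9 (adjusted p = 0.0230, 0.0446 and 0.0342). Ighj3 lay closer still (-1.05 ± 0.37, adjusted p = 0.0519) and was called with library totals alone, with all 24 libraries in the fit and without vehicle C25, E2 C29 or E4 C36 (adjusted p from 0.0205 to 0.0468). Igha (-1.91 ± 1.22, adjusted p = 0.260) did not pass the test, and Ighg2c was the only tested member with a positive value (0.35 ± 0.49, adjusted p = 0.6246). The median over the 13 tested members was -1.53, beside -0.013 over all tested genes.

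With the series of animal numbers as a covariate 4 members were called, Iglc3 (adjusted p = 0.0518) and Igkv1-110 (adjusted p = 0.0542) no longer among them. A count of 3 members was reached without vehicle C3, E4 C19 or E4 C20. The calls of Ighd, Iglc1 and Iglc2 held on leaving out any of the 18 libraries of this fit. Iglc1 and Igkv1-110 were not among the 10 members tested with only the vehicle and E4 libraries in the fit. Both were kept in the fit of 18 libraries with the help of E2 counts. The call of Iglc3 was lost without vehicle C3, C5 or C24, E2 C6 or E4 C19, C20, C38 or C39 (log2 fold change over all 18 from -1.94 to -1.31, adjusted p up to 0.113). That of Ighj4 was lost without vehicle C2, C3, C4 or C25 or E4 C16, C19, C20 or C36 (-1.55 to -1.04, adjusted p up to 0.0864), and that of Igkv1-110 without vehicle C3, C5, C24 or C25, E2 C26 or any E4 library (-4.81 to -3.84, adjusted p up to 0.0868). Within the first and the second series of animal numbers the log2 fold change of Ighd was -1.73 and -1.96, that of Iglc1 -3.29 and -4.47 and that of Iglc2 -2.72 and -2.54, with adjusted p-values from 0.0766 to 0.136 in these smaller fits. The value of Igkv1-110 rests on 0 counts in 4 E4 libraries and 2 counts in E4 C19 and in E4 C20, against 5 to 42 counts in the vehicle libraries, so that its size depends on the fit's prior count.

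In E2-treated as compared with vehicle-treated mice, 0 of the 13 members were called by edgeR and 0 by DESeq2, while 0.324% of all genes were called lower and 0.9% higher. At an unadjusted p under 0.05, 3 members were lower by edgeR, beside 6.81% of all genes, namely Iglc2 (-1.43 ± 0.48, adjusted p = 0.123), Iglc3 (-1.28 ± 0.52, adjusted p = 0.211) and Ighd (-0.80 ± 0.37, adjusted p = 0.302). Leaving out vehicle C2 brought Iglc2 past both thresholds (-1.64, adjusted p = 0.0475). Ighm differed by 0.18 ± 0.23 (adjusted p = 0.808). Igha (1.89 ± 0.96, adjusted p = 0.356) and Igkv1-110 (1.60 ± 0.87, adjusted p = 0.398) had the largest positive values, which without E2 C9 were 0.20 and -0.52.

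The difference between the estrogens was tested in the same fit. In E4-treated as compared with E2-treated mice, 4 of the 13 members were called lower and 0 higher, where 2.07% of all genes were called lower and 0.191% higher. These were Ighm (-1.04 ± 0.23, adjusted p = 0.00992), Igha (-3.80 ± 1.16, adjusted p = 0.0426), Iglc1 (-2.92 ± 0.92, adjusted p = 0.0493) and Igkv1-110 (-5.82 ± 1.36, adjusted p = 0.0139). Ighd, which fell against vehicle, had a value of -1.02 ± 0.39 (adjusted p = 0.0901) and was called with DESeq2 (-1.01, adjusted p = 0.0475) and with only the 2 groups in the fit (-1.02, adjusted p = 0.0243). With the series of animal numbers as a covariate the calls of Igha (adjusted p = 0.0680) and Iglc1 (adjusted p = 0.0532) were lost. Without the filter on low counts both were lost as well (adjusted p = 0.0578 and 0.0675). Igha and Iglc1 were not among the 5 members tested in the fit of E2 and E4 libraries alone. Both were kept in the fit of 18 libraries with the help of vehicle counts. Igkv1-110 did not overlap between the groups, with 3 to 251 counts in E2 and 0 to 2 in E4 libraries. It passed the filter on its vehicle and E2 counts and was not tested in the fit of E2 and E4 libraries alone, so that the lack of overlap goes with how it was kept. In the fit of 18 libraries it remained called without any single library, E2 C9 included (log2 fold change -6.41 to -3.71). Without E2 C9, the log2 fold change of Igha was -2.11 (adjusted p = 0.196), that of Iglc1 -3.13 (adjusted p = 0.0507) and that of Ighm -0.86 (adjusted p = 0.0267), and Igkv1-110 alone was called. The call of Igha was also lost without vehicle C25, E2 C6 or any E4 library (log2 fold change over all 18 from -4.27 to -2.11, adjusted p up to 0.196), and that of Iglc1 without any library but vehicle C2, vehicle C5 or E2 C29 (-3.53 to -2.57, adjusted p up to 0.105). A single member was also called without E2 C6, E4 C19 or E4 C38, and 2 members without vehicle C25 or E4 C16, C20, C36 or C39. Ighm kept an adjusted p under 0.05 without any of the 18 libraries (up to 0.0293), with a log2 fold change between -1.16 and -0.86, and the calls it lost were lost on the fold threshold. Within the first series of animal numbers, to which E2 C9 belongs, its value was -1.48, and within the second it was -0.50 (adjusted p = 0.459).

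In tamoxifen-treated as compared with vehicle-treated mice, tested in a fit of all 24 libraries in which 14 members passed the filter, 0 members were called by edgeR, with 0.196% of 25056 genes called lower and 0.12% higher. At an unadjusted p under 0.05, 7 of the 14 members were lower, beside 11.2% of all genes, among them Ighd (-1.31 ± 0.38, adjusted p = 0.0649), Iglc3 (-1.80 ± 0.56, adjusted p = 0.0750) and Ighm (-0.64 ± 0.21, adjusted p = 0.0940). DESeq2 called 2, Ighd and Iglc3. Ighd was also called by edgeR without vehicle C2 (-1.49, adjusted p = 0.0358), vehicle C4 (-1.44, adjusted p = 0.0485) or tamoxifen C35 (-1.50, adjusted p = 0.0443). The comparisons of E4, E2 and tamoxifen with vehicle share the same 6 vehicle libraries.

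**Figure D2:**
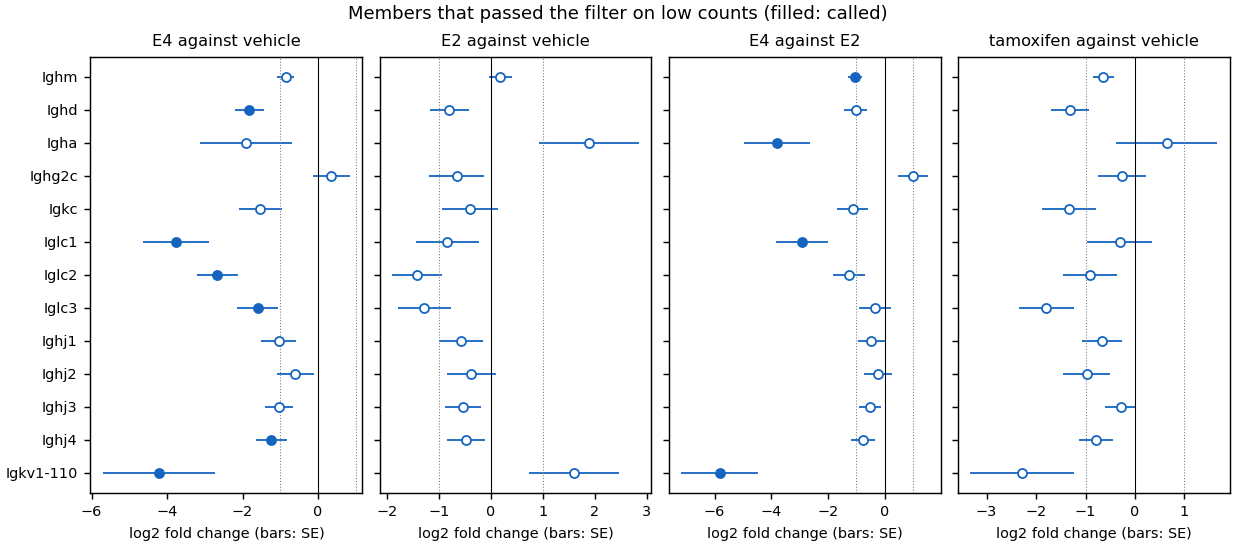
Log2 fold change of the 13 tested members of the estrogen fit in each comparison (a 14th, Igkv1-117, tested only with tamoxifen, is not drawn), with bars for the SE, filled points for called members and dotted lines at the fold threshold of 1. In E4 against vehicle 6 members are filled, all of them below 0, in E4 against E2 4 are filled, and the other panels hold no filled point.

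Joining segments were short and sparse, and only Ighj1 to Ighj4 of them passed the filter on low counts. The 11 joining members and the diversity member Ighd4-1 all had a mean below 1 CPM. The 4 heavy chain joining segments are shown because each was detected at similar depth, with the motif TGGGGNNNNGG, which encodes the conserved tryptophan and glycine of the joined domain, in capitals (GENCODE transcripts, GRCm38, minus strand, chr12:113429781-113429833, chr12:113429468-113429515, chr12:113429085-113429132 and chr12:113428514-113428567).
Ighj1: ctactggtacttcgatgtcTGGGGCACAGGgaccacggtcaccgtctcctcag
Ighj2: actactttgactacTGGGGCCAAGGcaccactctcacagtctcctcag
Ighj3: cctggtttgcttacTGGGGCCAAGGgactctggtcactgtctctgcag
Ighj4: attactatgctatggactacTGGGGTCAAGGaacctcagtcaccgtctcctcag
Summed over these 4 segments, the level was 0.919 to 1.36 CPM in vehicle libraries (median 1.22), 0.294 to 1.34 CPM in E2 (median 0.921), 0.281 to 0.947 CPM in E4 (median 0.596) and 0.499 to 0.892 CPM in tamoxifen libraries (median 0.765). The tamoxifen libraries all lay below the vehicle libraries, and the highest E4 library lay within the vehicle range. Vehicle libraries varied less in this sum (CV 14.7%) than in the Igkv sum (CV 74.4%) or in Ighd (CV 61.3%). The summed kappa joining segments were sparser, with 5 to 30 counts in vehicle libraries and 1 to 7 in E2 libraries, and their median was 0.261 CPM in vehicle and 0.0237 CPM in E4 libraries.

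Variable segments were summed by locus. The Igkv sum was lowest at 1.33, median 3.19 and highest at 8.49 CPM in vehicle, and 1.04, 2.11 and 12.7 CPM in E2 libraries. In E4 libraries it was 0.609, 0.912 and 2.70 CPM, and in tamoxifen libraries 0.649, 1.06 and 3.70 CPM. The Ighv sum was 0.469 to 3.83 CPM in vehicle (median 2.17), 0.614 to 4.35 CPM in E2 (median 1.07), 0.284 to 1.92 CPM in E4 (median 0.808) and 0.396 to 2.04 CPM in tamoxifen libraries (median 0.919). The Iglv sum was 0.131 to 1.28 CPM in vehicle (median 0.478), 0.169 to 0.544 CPM in E2 (median 0.319), 0.0469 to 0.185 CPM in E4 (median 0.0777) and 0 to 2.44 CPM in tamoxifen libraries (median 0.119). For all 3 sums the medians of E2, E4 and tamoxifen libraries were below that of vehicle libraries, and every range overlapped the vehicle range.

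**Figure D3:**
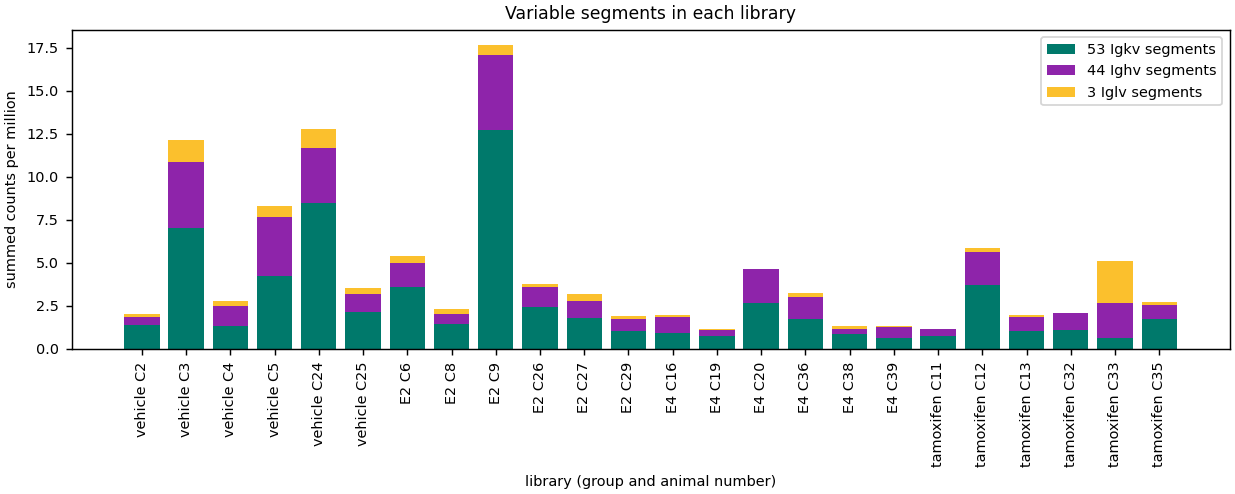
Summed CPM of the Igkv, Ighv and Iglv members in each of the 24 libraries, stacked by locus. E2 C9 has the highest Igkv sum (12.7 CPM), vehicle C24 (8.49 CPM) the highest of the vehicle libraries, and the lambda part exceeds the kappa part in tamoxifen C33.

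The number of V counts per constant count differed between the chains. Libraries held 39.1 to 153 Igkv counts per 100 Igkc counts, whereas they held 1.76 to 10.04 Ighv counts per 100 Ighm counts. These numbers are not scaled by length, and the exons of Ighm hold 1886 bases against 532 for Igkc. Heavy chain V segments are joined to the constant genes of every class, so that the Ighv count includes transcripts of Ighd, Igha and the IgG genes as well.

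The most abundant variable segments by mean level were Ighv9-3, Ighv1-26, Ighv11-2, Ighv6-3 and Ighv6-6 in the heavy chain and Igkv1-110, Igkv1-117, Igkv14-126, Igkv19-93 and Igkv10-94 among kappa segments, followed in lambda by Iglv1, Iglv2 and Iglv3. Most of these owed their place to a few libraries. Igkv1-110 took 251 of 810 variable counts in E2 C9 (31.0%, 95% exact binomial interval 27.8 to 34.3%) and 36 of 178 in E2 C26 (20.2%). Igkv1-117 took 21.9% in vehicle C24, and Igkv10-94 took 51 of 262.5 in tamoxifen C12 (19.4%). Ighv9-3 was the leading heavy chain segment in vehicle C2, C4 and C24, with 50 counts in the last, and shared the lead with Ighv6-6 in vehicle C5 (33 counts each).

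E4 C20 and tamoxifen C33 were each dominated by a heavy and a light chain segment. In E4 C20, Igkv14-126 had 68 counts (34.2%, interval 27.6 to 41.2%) and Ighv11-2 had 66 counts, which was 80.5% of the Ighv counts of that library. In the other 23 libraries Igkv14-126 had at most 5 counts and Ighv11-2 at most 9. This pair of segments is known from B-1a cells that recognize phosphatidylcholine. In tamoxifen C33, Ighv6-3 had 67 of 91 Ighv counts (73.6%), and Iglv1 and Iglv2 had 60 and 49 counts. Ighv6-3 had at most 5 counts elsewhere. In the same library Iglc2 had 84 and Iglc1 47 counts, against 47 for Igkc. The 3′ ends of the dominant segments, where D or J segments are joined, are shown with the last in-frame cysteine codon, at which the third hypervariable loop begins, in capitals. The windows are chr6:67896523-67896642 (plus strand), chr12:114048241-114048360 (minus), chr12:114391712-114391831 (minus) and chr6:68271148-68271267 (plus) of GRCm38, from the GENCODE transcripts.
Igkv14-126: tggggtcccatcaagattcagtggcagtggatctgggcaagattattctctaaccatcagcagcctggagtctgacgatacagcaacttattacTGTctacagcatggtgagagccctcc
Ighv11-2: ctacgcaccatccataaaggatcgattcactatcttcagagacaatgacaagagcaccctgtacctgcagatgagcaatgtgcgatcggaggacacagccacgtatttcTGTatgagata
Ighv6-3: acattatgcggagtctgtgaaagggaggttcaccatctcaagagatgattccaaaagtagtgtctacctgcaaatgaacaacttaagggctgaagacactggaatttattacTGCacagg
Igkv1-110: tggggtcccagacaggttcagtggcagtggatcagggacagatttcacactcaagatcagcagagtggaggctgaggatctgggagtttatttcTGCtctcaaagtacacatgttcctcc

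Iglv1 and Iglv2, which had similar counts in tamoxifen C33, were identical at 340 of 351 coding bases (96.9%). Their last 120 coding bases (minus strand, chr16:19085017-19085136 and chr16:19260401-19260520, GRCm38) are given with the 4 differing bases in capitals, because reads from either can align to the other.
Iglv1: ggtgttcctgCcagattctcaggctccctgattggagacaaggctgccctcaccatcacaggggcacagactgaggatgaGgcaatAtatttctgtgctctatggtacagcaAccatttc
Iglv2: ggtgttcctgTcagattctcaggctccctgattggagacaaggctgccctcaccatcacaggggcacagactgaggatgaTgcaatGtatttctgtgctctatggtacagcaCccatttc

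**Figure D4:**
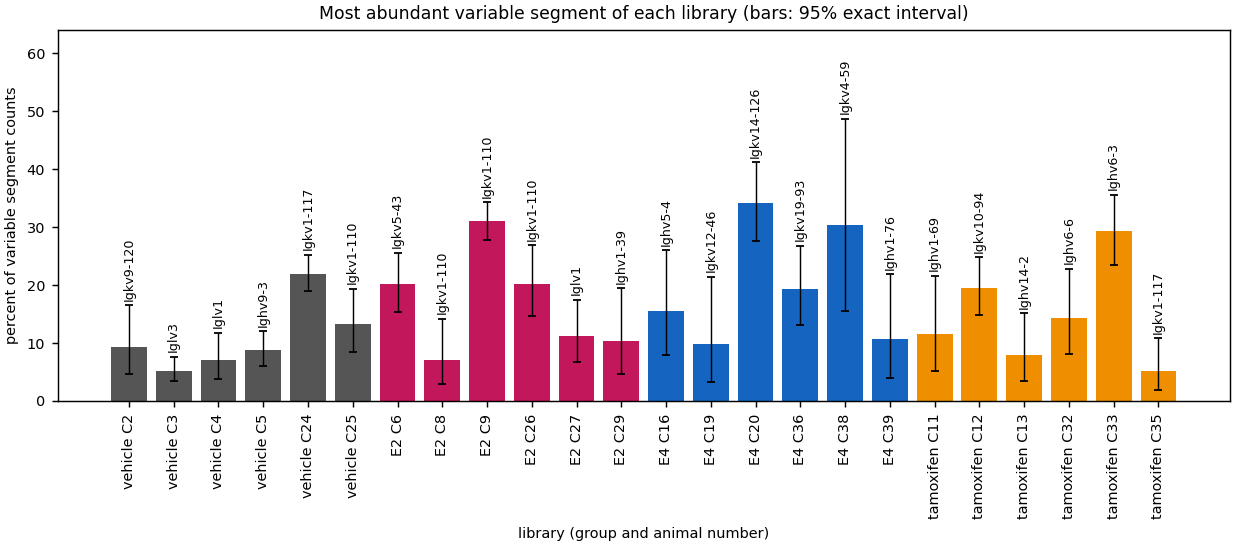
Share of the most abundant variable segment in the variable segment counts of each library, with its name above the bar and the 95% exact binomial interval, which covers counting error only. The share was 5.25% (Iglv3) in vehicle C3, 31.0% (Igkv1-110) in E2 C9, 34.2% (Igkv14-126) in E4 C20 and 29.3% (Ighv6-3) in tamoxifen C33.

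Over all libraries, the Ighv1 family, the largest of the locus, supplied 47.8% of the Ighv counts, and the Igkv1 family supplied 28.7% of the Igkv counts. The Ighv11 family made up 29.5% of the Ighv counts in the E4 group and 1.25% in the vehicle group, and the E4 share includes the 66 counts of Ighv11-2 in E4 C20. The 38 Ighv segments nearest to Ighj1 (149 to 824 kb) supplied 33.5% of the Ighv counts, the next 38 supplied 38.9% and the farthest 39 supplied 27.5%. Counts were thus spread over the whole locus. In the E4 group the nearest segments supplied 61.7%, which includes Ighv11-2 in E4 C20.

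Ratios within a library need no scaling between libraries. The ratio of Ighd to Ighm counts was 0.157 ± 0.0627 in vehicle (SD, n = 6), 0.0968 ± 0.0665 in E2, 0.0902 ± 0.0384 in E4 and 0.104 ± 0.0403 in tamoxifen libraries. By a two-sided exact permutation test of the mean log2 ratio, the difference of E4 from vehicle was -0.82 with p = 0.0476 (adjusted p = 0.303 over 12 tests), with 3 of 6 E4 libraries below every vehicle library. For E2 against vehicle it was -0.80 (exact permutation p = 0.0693, adjusted p = 0.303), and for tamoxifen -0.57 (exact permutation p = 0.119, adjusted p = 0.357). The ratio of Igkc to Ighm differed by -0.41 between E4 and vehicle (exact permutation p = 0.370) and by -0.52 between E2 and vehicle (exact permutation p = 0.307). The ratio of Ighm to Cd79a, the signalling partner of surface immunoglobulin, was 12.6 ± 3.88 in vehicle, 20.3 ± 7.45 in E2, 18.5 ± 13.3 in E4 and 17.3 ± 9.87 in tamoxifen libraries, and its largest difference was 0.65 for E2 against vehicle (exact permutation p = 0.0758, adjusted p = 0.303). None of the 12 tests passed after adjustment, the smallest p that 6 against 6 libraries allow being 0.00216.

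Genes that work with the immunoglobulins were read from fixed lists. In E4-treated as compared with vehicle-treated mice, 12 of the 18 tested B cell markers were called lower and 0 higher (median log2 fold change -1.55). They included Ms4a1, which encodes CD20 (-2.57 ± 0.46, adjusted p = 0.00219), and Cd79b and Cd79a, the signalling chains of the B cell receptor (-1.98 ± 0.39, adjusted p = 0.00349, and -1.34 ± 0.35, adjusted p = 0.0135). Cd22, Fcer2a, Pax5, Blk, Fcrla, Spib, Tnfrsf13c and Fcmr were also among them and fell by 1.52 to 2.70 on the log2 scale. Without E4 C38, Fcer2a was no longer called (-1.48, adjusted p = 0.0583), which left 11 B cell markers, and in E4 against E2 the call of Spib was lost. In E2 against vehicle no B cell marker was called by edgeR (median -0.71), in E4 against E2 4 were called lower (Cd37, Bank1, Spib and Blnk), and in tamoxifen against vehicle 2 were called lower, Cd79b (-1.51 ± 0.40, adjusted p = 0.0487) and Ms4a1 (-1.79 ± 0.43, adjusted p = 0.0342). Each of these 2 calls was lost on leaving out any of 8 of the 12 libraries compared, namely vehicle C3, C5 or C24 or tamoxifen C11, C12, C13, C32 or C33. Over all 12 the log2 fold change of Cd79b was -1.76 to -1.28 (adjusted p up to 0.151) and that of Ms4a1 -1.99 to -1.43 (adjusted p up to 0.119). Both calls were also lost without the filter on low counts, and that of Cd79b with the series of animal numbers as a covariate (adjusted p = 0.0595).

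Of 20 B cell receptor signalling genes, 5 were called lower in E4 against vehicle (among them Cd79a, Cd79b, Blk and Cd22), 4 in E4 against E2 (Btk, Blnk, Ptpn6 and Vav1) and 1 in tamoxifen against vehicle (Cd79b). Without E2 C9, Blnk alone of these was called in E4 against E2, and without E4 C38 the call of Ptpn6 was lost. Btk, Ptpn6 and Vav1 are used by many leukocytes, whereas Cd79a and Cd79b are restricted to the B lineage. Of the 15 factors of immunoglobulin transcription, Pax5 and Spib were lower and Irf4 higher (1.56 ± 0.28, adjusted p = 0.00236) in E4 against vehicle, and Irf4 was higher in E2 against vehicle (1.52 ± 0.28, adjusted p = 0.00315). Over the 24 libraries the median of Irf4 was 61.0 CPM, against 0.825 CPM for Pax5 and 0.710 CPM for Spib. Which cells the Irf4 counts came from was not tested. Ikzf1 and Spib were lower in E4 against E2, and the call of Ikzf1 was lost without E2 C9 (-0.85, adjusted p = 0.0176).

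Of 10 tested genes of immunoglobulin assembly and transport, Creld2 alone was called (E4 against E2, -1.01 ± 0.12, adjusted p = 0.000186), and without E4 C38 its log2 fold change of -0.98 fell short of the fold threshold (adjusted p = 0.000887). Jchain, which links IgA and IgM into polymers, was 0.483 to 2.39 CPM in vehicle (median 1.01), 0.493 to 5.88 CPM in E2 (median 0.920), 0.486 to 1.52 CPM in E4 (median 0.743) and 0.464 to 1.87 CPM in tamoxifen libraries (median 0.986), with its maximum in E2 C9. The plasma cell chaperone Mzb1 stayed at or below 0.562 CPM in all libraries, and the B cell coactivator Pou2af1 had medians of 0.867, 0.627, 0.382 and 0.570 CPM in vehicle, E2, E4 and tamoxifen libraries. The plasma cell list had a receptor for survival signals, Tnfrsf17, called lower in E4 against vehicle (-1.32 ± 0.41, adjusted p = 0.0302) and in E4 against E2 (-1.50 ± 0.41, adjusted p = 0.0283; without E2 C9 adjusted p = 0.0574), both calls being lost without E4 C38, where Prdm1 was called lower instead in E4 against vehicle at -1.06, and Irf4 higher with both estrogens.

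Recombination genes were called in E4 against E2 only as Rag1 (-7.85 ± 2.02, adjusted p = 0.0224) and Dntt (-7.32 ± 1.83, adjusted p = 0.0191), which also belong to the thymocyte list that E2 C9 was high in. Without that library neither was called in E4 against E2 (Rag1 -3.49, adjusted p = 0.139, and Dntt -3.14, adjusted p = 0.118), and both were called lower in E4 against vehicle (-4.36, adjusted p = 0.0318, and -4.29, adjusted p = 0.0140). None of the 9 tested genes of class switching and hypermutation was called by edgeR in any comparison. Among immunoglobulin receptors, the IgE receptor chains Fcer1a and Ms4a2, together with Fcer2a and the IgM receptor Fcmr, were called lower in E4 against vehicle, Fcer2a not without E4 C38. The IgG receptors Fcgr1, Fcgr2b and Fcgr3 and their signalling chain Fcer1g were called lower in E4 against E2 (log2 fold changes -1.29 to -1.07).

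Markers of other cells were read beside these results. In E4 against E2, 10 of 15 T cell markers and 3 of 8 tested thymocyte markers were called lower, and in E4 against vehicle the T cell marker Cd2 was. Without E2 C9, the library high in both lists, 1 of 15 T cell markers (Cd2) and 0 of 8 thymocyte markers were called in E4 against E2, whereas 13 of 15 T cell markers and 3 of 8 thymocyte markers were called lower in E4 against vehicle. Without E4 C38, 3 of 15 T cell markers were called lower in E4 against E2 and 0 in E4 against vehicle, where Cd2 had a value of -0.98 (adjusted p = 0.0814). All 15 T cell markers had negative values in E4 against vehicle with every library included, and their median log2 fold change was -1.63, beside -1.55 for the B cell markers. Summed T cell markers were 19.9 to 75.8 CPM in vehicle and 13.1 to 21.5 CPM in E4 libraries. All 7 erythroid markers were likewise negative in E4 against vehicle (median -0.91) with no call. Erythroid markers were called lower for 6 of 7 genes in tamoxifen against vehicle and for 2 of 7 in E4 against E2, or 1 of 7 without E2 C9 or E4 C38. Of 10 smooth muscle markers Myocd alone was called, higher with tamoxifen, and of 10 endothelial markers Vwf alone, higher with both estrogens against vehicle. Of the lymph node stroma list Fcer2a was lower in E4 against vehicle, a call lost without E4 C38, while Lyve1 was higher in E2 against vehicle and lower in E4 against E2. Mki67 and Top2a of the germinal centre list and Rag1 and Dntt of the immature B cell list were lower in E4 against E2, and of these Top2a alone was called without E2 C9. Of the adipocyte list Lep was lower in E4 against vehicle, E4 against E2 and tamoxifen against vehicle, and Cfd was higher in E2 against vehicle. Tg of the thyroid and parathyroid list was higher in E4 against E2 (2.94 ± 0.72, adjusted p = 0.0168), and also without E4 C38, where its value was 1.33 (adjusted p = 0.0211). No sympathetic ganglion marker was called, but all 10 had positive values in E4 against vehicle (median 0.91). Over the 24 libraries the mean log2 level of that list had a Spearman's rho of -0.83 with Ighm and -0.71 with Ighd (Pearson's r -0.47 for both), and the list was lowest in vehicle C5 and tamoxifen C35. The part of these cell types in the immunoglobulin values was not tested.

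The constant genes differed in how they followed the B cell markers over the 24 libraries. Ighd had a Spearman's rho of 0.98 (Pearson's r 0.98) with the mean log2 level of the 19 B cell markers, and rho within groups was between 0.94 and 1 (n = 6 each). For Igkc rho was 0.73 (r 0.74) and for Ighm 0.64 (r 0.66). Within groups, rho for Igkc was 0.94 in vehicle, 0.31 in E2, -0.03 in E4 and 0.77 in tamoxifen libraries, and for Ighm it was 0.77, -0.09, -0.20 and 0.60. The libraries share their treatment groups, so these values are descriptive. The non-member genes most like Igkc, among 29776 compared, were Ly6d (rho 0.83), Cd79b (0.80), Gm19195 (0.77), Fam78a (0.76) and Gm5983 (0.76). By the same measure, chosen after the values were seen, those most like Ighd included Ms4a1, Pax5, Cd79b and Cd79a (rho 0.89 to 0.93), and those most like Ighm were Ptpn6, Gmfg-ps, Evi2a, Gm7730 and Gm8242 (rho 0.92 to 0.93), where no B cell marker appeared. Igha was most like Jchain (rho 0.81).

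**Figure D5:**
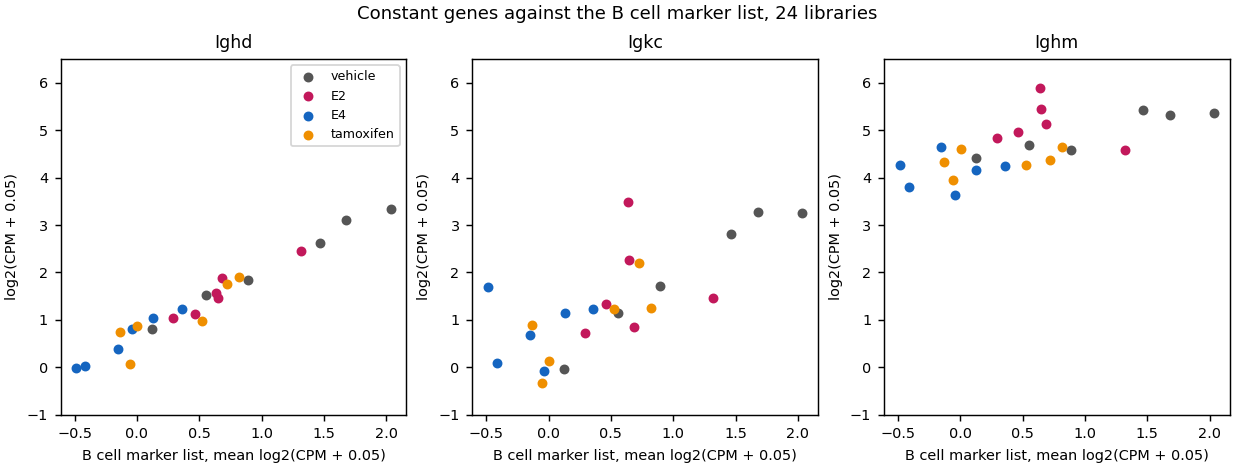
Level of Ighd, Igkc and Ighm as log2(CPM + 0.05) against the mean log2 level of the B cell marker list in 24 libraries, colored by group. Ighd follows the list closely (Spearman's rho 0.98), Igkc less so (0.73), and Ighm (0.64) spans a narrow range above both.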

How the data were processed

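RNA sequencing of whole carotid arteries was analysed for 24 libraries, 6 per group, which is more per group than the study's text states for its sequencing. Per the labels and methods, TRIzol total RNA was made into stranded mRNA libraries and read as 150-base pairs. The labels put every integrity number above 7.4, and the methods state a lower limit. The authors trimmed reads with Trim Galore and deposited estimated counts per gene, without normalization, which the table names attribute to Bowtie2 and featureCounts on mm10. Bowtie2 does not split reads over introns, so reads that join V and J or J and constant exons may be lost or cut, and near-identical segments can exchange reads. The strand setting is not given in the sources used here.

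Members and lists were chosen with earlier results of these data known. Names, classes and coordinates came from GENCODE mouse release 21 (GRCm38), which held 55240 of 55421 identifiers. Counts were rounded to whole numbers, filtered by edgeR's default, scaled by TMM and fitted in edgeR 4.0.16 (R 4.3.3), whose quasi-likelihood p-values were Benjamini-Hochberg adjusted over all genes. The 18 vehicle, E2 and E4 libraries shared a fit without covariates, and tamoxifen was tested over all 24. The fit was tested on simulated data with known changes. Ratios were tested by two-sided exact permutation in Python 3.11.15 with scipy 1.17.1. Standard errors were derived from the F statistic, and log2 levels use a pseudocount of 0.05 CPM. A count of 3 was taken as the detection floor.

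Named were all constant members, the 5 Ighv, 5 Igkv and all Iglv segments with the highest mean, called members, the list genes called, Cd79a, Cd79b, Ms4a1, Jchain, Mzb1 and Pou2af1, and the 5 genes most like Igkc. Some genes that the rule takes are not reported here. Alternatives were DESeq2 1.42.0, other scaling factors, no filter, fits with other groups or within a number series, no fold threshold, and each library left out.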

Additional observations from a re-analysis of the deposited data

Results flagged for a closer look

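Among 66 sets of 6 libraries examined for a library far from the others (11 constant genes, 3 variable sums and 3 ratios, in each group where values differed), 13 had such a library. Chance would give about 3.3 for independent sets of normally distributed values. These sets are related and many hold sparse counts, so no excess over chance is read from these numbers. E2 C9 was high in Igha (7.05 CPM, others 0.0473 to 1.77 CPM), Igkc (11.1 CPM, others 1.60 to 4.76 CPM), the Ighv sum (4.35 CPM, others 0.614 to 1.38 CPM) and the Igkv sum (12.7 CPM, others 1.04 to 3.61 CPM), and it is also the library with the high T cell and thymocyte markers. The part of those cells in these values was not tested.

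Tamoxifen C33 was high in Iglc1 (1.05 CPM, others 0.0639 to 0.268 CPM), Iglc2 (1.88 CPM, others 0.155 to 0.736 CPM) and the Iglv sum (2.44 CPM, others 0 to 0.223 CPM). Tamoxifen C12 was high in Igha (2.27 CPM, others 0 to 0.681 CPM) and the Igkv sum (3.70 CPM, others 0.649 to 1.72 CPM). Ighg2b in tamoxifen C11 (0.0172 CPM) and Ighg1 in vehicle C3 (0.153 CPM) stood out only because the other 5 libraries of the group were at 0. The ratio of Ighd to Ighm counts was 0.228 in E2 C27 (others 0.0494 to 0.103), and the ratio of Ighm to Cd79a counts was 44.6 in E4 C39 (others 8.71 to 19.9).

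Ighe, the constant gene of IgE, lay outside the members because it had counts in 2 libraries only. It had 86 counts in E2 C9, 2 in E2 C8 and 0 in the other 22 libraries, the 6 vehicle libraries among them.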

How the results depend on the processing

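The count of members called lower in E4 against vehicle, 6 as reported, was 12 without the filter on low counts (of 123 members tested in place of 13, with the calls of Iglc3, Ighj4 and Igkv1-110 lost at adjusted p-values of 0.0622, 0.0666 and 0.0585), 10 with DESeq2 (of 16), 4 with the number series as a covariate, 3 with only the 2 groups in the fit (of 10), and 1 and 0 within the first and the second number series. In E4 against E2, 4 as reported, it was 5 with DESeq2, 2 with the number series as a covariate, 2 with only the 2 groups in the fit (Ighm and Ighd, of 5 members tested), and 1 and 0 within the series. In tamoxifen against vehicle DESeq2 called 2 members instead of 0. Leaving out each library gave 3 to 8 members in E4 against vehicle, 0 to 1 in E2 against vehicle, 1 to 4 in E4 against E2 and 0 to 1 in tamoxifen against vehicle. The fits within a series hold fewer libraries, and the cause of the other changes was not tested. No member was called higher under any setting.

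Directions that turned were those of uncalled members. In E2 against vehicle these were Igkc (0.27) and Ighj2 (0.16) in the first series, Igha (-1.75), Ighm (-0.21) and Igkv1-110 (-1.01) in the second, and Ighm (-0.0017) and Igkv1-110 (-0.52) without E2 C9, the lowest values on leaving out each library, whose highest were 0.28 and 1.98. In E4 against E2 they were Ighj1 (0.23), Ighj2 (0.47), Ighj3 (0.40) and Ighj4 (0.20) in the second series and Ighj2 (0.048) without E2 C9 (lowest value on leaving out each library -0.49). In tamoxifen against vehicle they were Igkv1-117 (0.025) in the first series, Igha (-0.62) in the second, Ighg2c (0.15) without vehicle C3 and Igha (-0.30) without tamoxifen C12, against -0.51 and 1.10 at the other end of the range. The E4 against E2 ratios, near 0 as reported, ranged from -0.17 to 0.27 for Ighd to Ighm and from -0.067 to 0.32 for Igkc to Ighm on leaving out each library. The 12 variable sums changed by less than 1 SD under scaling by library totals alone.

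No paired analysis was possible because the groups share no replicate number. Only 13 of 123 members passed the filter on low counts.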

Other observations

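Outside the members, which Ighv2-3 and Igkv9-124 missed for having counts in 3 and 4 libraries, E2 C9 had 44 and 22 counts of these segments, against at most 2 and 5 counts in any other library. Ighv5-9 had 27 counts in tamoxifen C12 and at most 2 elsewhere, and Ighv7-1 had 36 counts in E2 C6, 15 in vehicle C3, 9 in vehicle C5 and 2 in E2 C8. These 4 were chosen after their values were seen.

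Variable segment counts per 100 Cd79a counts were 164 to 314 in vehicle libraries. They reached 900.0 in E2 C9, 674 in tamoxifen C33, 485 in E4 C20 and 82.3 in E4 C19, the lowest of all.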
